A study of Mus musculus with 12 samples.

Results

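Smooth muscle contractile genes were followed in mouse pancreatic stellate cells (PSCs), the fibroblast-like cells of the pancreas that can take on a contractile, myofibroblast state. The group holds 10 genes, *Acta2*, *Tagln*, *Cnn1*, *Cnn2*, *Myl9*, *Actg2*, *Tpm1*, *Tpm2*, *Myh11* and *Cald1*, and its members were the entries of the count table that carry these symbols, 10 of 39179 genes. PSCs labelled with mCherry were grown for 72 h by themselves (mono-PSCs) or with pancreatic cancer cells (PCCs) labelled with EGFP (2W-PSCs). In a further culture of 72 h they grew with PCCs and macrophages (MØs) labelled with TagBFP (3W-PSCs). All PSCs were then sorted as positive for mCherry and negative for EGFP and TagBFP. Each culture gave 4 libraries, 12 in all, and the comparisons ask how the RNA of PSCs differs when PCCs, or PCCs and MØs, share the dish.

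All PSCs carried C57BL/6 as their strain label, and by the study's methods they were an SV40-immortalised line grown from a single clone (PSC C2), so that the libraries of a culture are repeat cultures of the same cells at most. The labels do not say how the replicates were made, and p-values measure only the spread between these libraries, which may be technical. The PCCs were a mouse pancreatic tumour line whose genotype includes p48-Cre and p53 fl/+, and the MØs were the RAW264.7 line. All cultures were in a medium low in dialysed serum, and the same total number of cells was plated in each. In these bulk libraries, fewer cells that express a gene and less of its RNA per cell cannot be told apart.

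In smooth muscle, actin filaments slide along myosin, and the phosphorylated regulatory light chain switches the motor on. Calponins, caldesmon, transgelin and tropomyosins lie along the actin filament and steady it or hold the motor back. In fibroblasts and stellate cells some of these genes, such as *Acta2*, mark the myofibroblast state. Many genes of the group are driven by serum response factor (SRF), together with the cofactors of the myocardin family. SRF binds a 10-base sequence known as the CArG box.

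Genes of this kind are commonly regulated through CArG boxes, so the stretches before the start sites were searched for matches to that sequence. RefSeq's table for GRCm38.p6 held 8 start sites for 7 of the 10 members, with no entry for *Tagln*, *Actg2* or *Myh11*. In the 250 bases upstream of the start, *Myl9* and *Cnn2* had a CArG box without mismatch, which 1.47% of the 32807 promoters in the table had. With at most 1 mismatch, 5 members had a match, *Acta2*, *Myl9*, *Cnn2*, *Tpm1* and *Cald1*, against 18.6% of all promoters. Below, each match is in capitals with its flanks in lower case, read 5′ to 3′ on the strand of the gene, and the position is that of its first base before the start.
Acta2 at -84 (chr19:34255438-34255467, minus strand): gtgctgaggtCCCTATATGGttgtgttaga
Acta2 at -34 (chr19:34255388-34255417, minus strand): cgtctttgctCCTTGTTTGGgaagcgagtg
Myl9 at -161 (chr2:156775293-156775322, plus strand): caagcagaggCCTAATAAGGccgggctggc
Myl9 at -99 (chr2:156775355-156775384, plus strand): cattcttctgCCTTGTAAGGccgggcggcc
Cnn2 at -56 (chr10:79988534-79988563, plus strand): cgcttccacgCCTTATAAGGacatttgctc
Tpm1 at -221 (chr9:67049415-67049444, minus strand): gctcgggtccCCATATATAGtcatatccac
Tpm1 at -80 (chr9:67049274-67049303, minus strand): acaagcttttCCAAAAAAGTattggctgtc
Cald1 at -203 (chr6:34598291-34598320, plus strand): acggtttcaaGCTTTTTAGGacttggtttt
The matches at -161 in *Myl9* and -56 in *Cnn2* are those without mismatch, and the other 6 have 1. GENCODE places the first exon of *Acta2*, and of an isoform of *Tpm1*, further upstream than RefSeq does, so that both *Acta2* stretches and the *Tpm1* stretch at -80 lie within an exon there. CATTCC, the core of the sequence bound by TEAD factors, was searched on both strands and occurred in *Acta2*, *Tpm1* and *Cald1*, with no overlap with a CArG box, against 12.6% of all promoters. *Tpm2* and *Cnn1* had neither motif in this window, nor did the other start of *Cald1*. These matches are letters in a window and were not tested for binding.

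**Figure D1:**
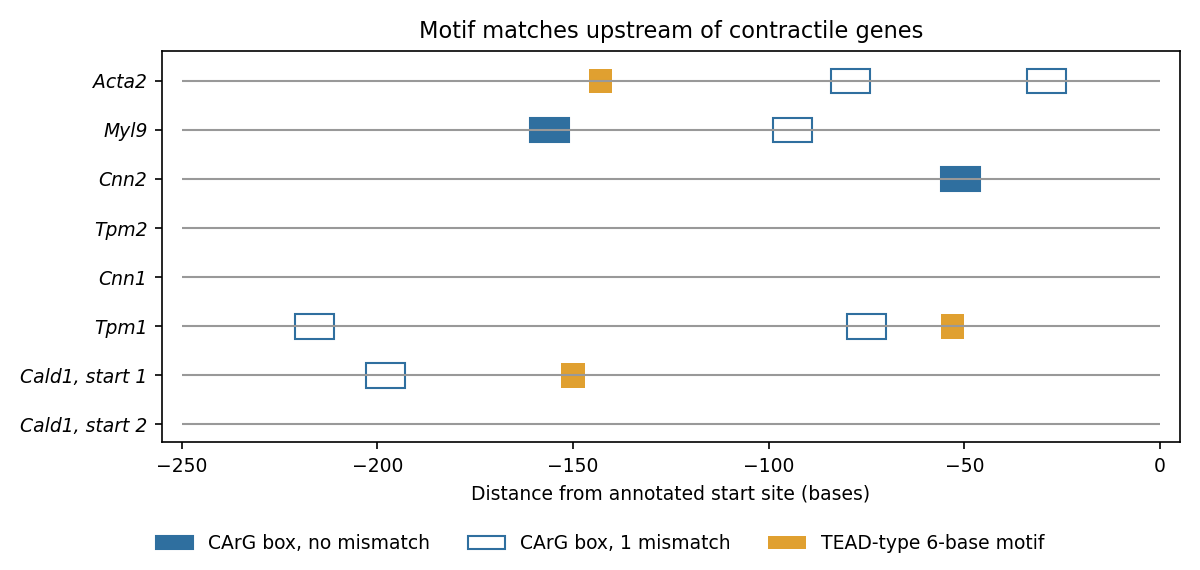
Positions of CArG boxes and of the TEAD-type motif CATTCC in the 250 bases before each RefSeq start site of 7 members, with the distance from the start in bases on the x axis. Filled boxes are matches without mismatch, open boxes CArG matches with 1 mismatch. The box of *Cnn2* lies at -56 and that of *Myl9* at -161.

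Levels are given as CPM, counts scaled to a common library total, after TMM scaling, which corrects for library composition. Library preparation used the QuantSeq 3′ FWD kit, in which a transcript gives about 1 fragment close to its 3′ end, so that levels of different genes can be set side by side without a correction for length. Library totals ran from 4561817 to 8093368 counts, and *Gm26924* took 10.1% to 17.9% of each. Replicate 2 of 2W-PSCs stood apart, with Spearman correlations of 0.858 to 0.920 with the other 2W-PSCs across genes, where all other pairs within a culture had 0.948 to 0.987. It also had the lowest total, and values without it are given where they change a call of a gene named here or move its change by over 1.5 times. Among 13 fibroblast and stellate cell markers, *Gfap* had no count in any library, and the summed level of the list was 4913 to 9234 CPM in mono-PSCs, and in 2W-PSCs 8401 to 8710 CPM and in 3W-PSCs 5437 to 6467 CPM. Of 10 epithelial markers, which PCCs would carry, the summed level was 0.484 to 3.69 CPM for mono-PSCs, 80.2 to 151 CPM for 2W-PSCs and 52.7 to 93.0 CPM for 3W-PSCs. *Epcam*, *Cldn4* and *Cldn7* were at 0 in every 2W-PSC library. Of those tested in edgeR, 5 of 6 rose from mono-PSCs to 2W-PSCs and 6 of 6 from mono-PSCs to 3W-PSCs, with the largest change for *Krt18*, a keratin of simple epithelia, at 0.0933 ± 0.108, 37.4 ± 10.6 and 23.2 ± 6.75 CPM (SD, n = 4 each; log2 fold change 8.53 and 7.86, adjusted p = 7.6e-06 and 9.72e-09). Of 10 macrophage markers in the table, the summed level was 1.60 to 7.44, 2.25 to 10.5 and 7.06 to 42.3 CPM in the same order. *Ptprc*, *Emr1*, *Fcgr1*, *Tyrobp* and *Laptm5* were at 0 in mono-PSCs and 2W-PSCs, and *Emr1* in 3W-PSCs too. Within 3W-PSCs, replicate 4 held 75 of the 83 counts of *Laptm5*, 22 of 28 of *Tyrobp*, 20 of 26 of *Ptprc* and all 12 of *Fcgr1*. For 9 markers of endothelial and of mural cells, the latter contractile themselves, the summed level was 9.01 to 20.7, 24.997 to 42.7 and 19.1 to 27.02 CPM. These sums move with the culture, and their part in the differences below was not tested.

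The 10 genes differed widely in level. *Cald1*, which encodes the actin-binding caldesmon, was highest in all 3 cultures, and *Tpm1*, a tropomyosin, came next. *Tpm2* and *Cnn2* overlapped in mono-PSCs, as did *Myl9* with *Tagln* in 2W-PSCs. *Acta2*, *Tpm2* and *Cnn2* also overlapped in turn in 2W-PSCs, where *Acta2* had moved from the fifth place by mean to the third. In 3W-PSCs the order was *Cald1*, *Tpm1*, *Cnn2*, *Tpm2*, *Acta2*, *Myl9* and *Tagln*, with no overlap between neighbours. *Cnn1*, *Actg2* and *Myh11* lay near 0 throughout. The summed mean level of the group was 2879 CPM for mono-PSCs, 4939 CPM for 2W-PSCs and 3159 CPM for 3W-PSCs, of which *Cald1* made up 49.8%, 45.7% and 58.1%. Per library the full sum ran from 2651 to 3413 CPM for mono-PSCs and from 2533 to 3515 CPM for 3W-PSCs, which overlapped. The 2W-PSCs lay above both, from 3992 to 6700 CPM. Without *Cald1* and *Tpm1*, the sum ran from 685 to 919.7 CPM for mono-PSCs, from 1389 to 1925 CPM for 2W-PSCs and from 459 to 505 CPM for 3W-PSCs. In that sum the 3 cultures did not overlap, but *Cald1* and *Tpm1* are also the tested members called in no comparison below.

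**Figure D2:**
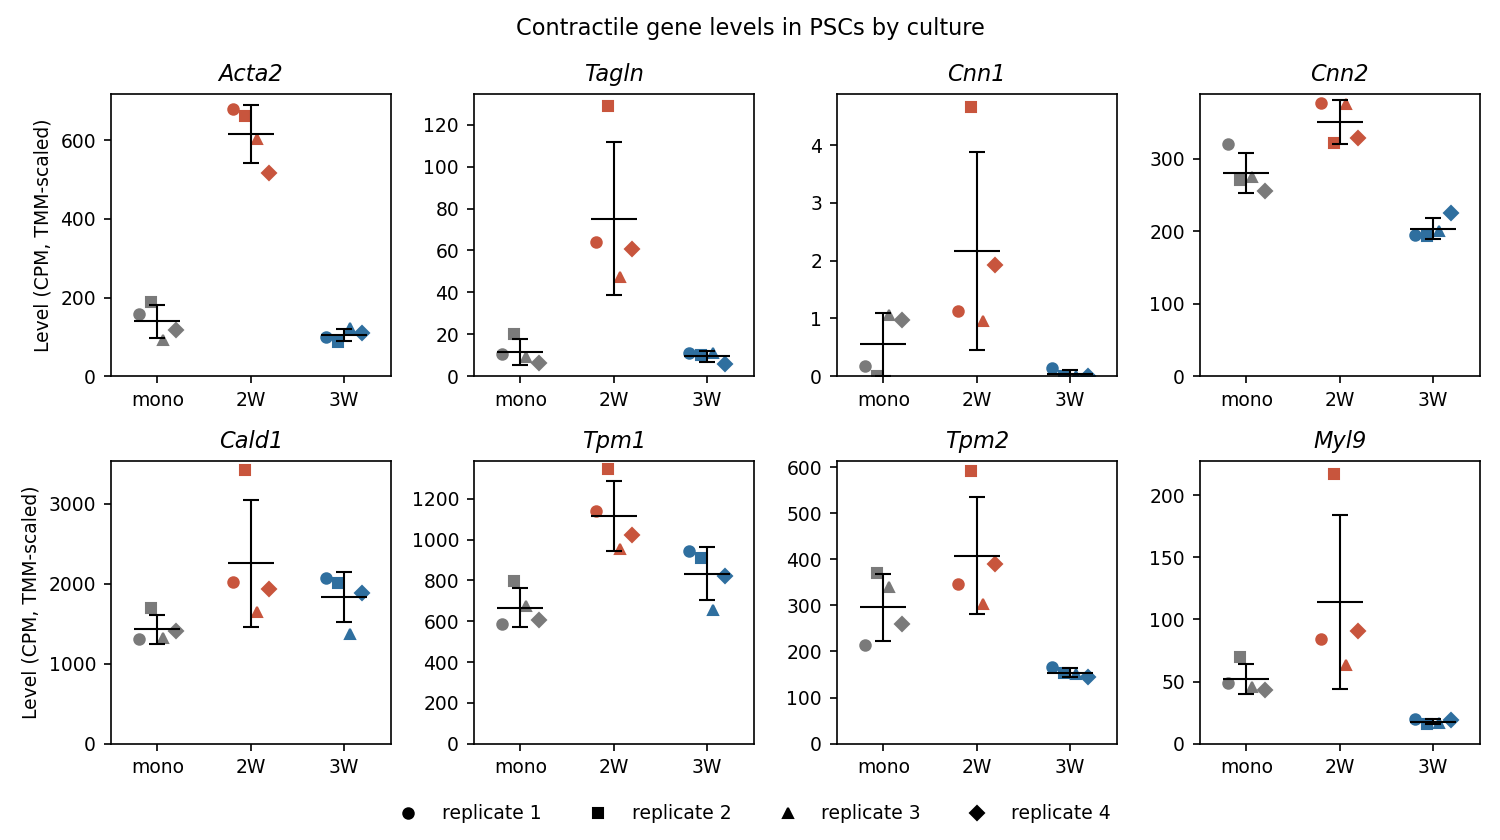
Level of 8 contractile genes in each library, in CPM on a linear axis from 0, by culture. Marker shapes are the replicates, long bars are means and whiskers are 1 SD (n = 4). *Acta2* and *Tagln* lie high in 2W-PSCs only, *Myl9*, *Tpm2* and *Cnn2* lie lowest in 3W-PSCs, and replicate 2 is the highest 2W-PSC library for *Tagln*, *Cnn1*, *Cald1*, *Tpm1*, *Tpm2* and *Myl9*.

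*Acta2* (ENSMUSG00000035783, chromosome 19 of GRCm38, 34241090 to 34255590, minus strand) encodes smooth muscle α-actin, the usual marker of myofibroblasts. Replicates 1 to 4 had 159, 188, 91.8 and 119 CPM in mono-PSCs. For 2W-PSCs the values were 680.0, 662, 605 and 518 CPM, and for 3W-PSCs they were 100.3, 86.5, 124 and 111 CPM. All 2W-PSC libraries thus lay above all others, and the other 2 cultures overlapped. Mono-PSCs averaged 139 ± 42.7 CPM, 2W-PSCs 616 ± 73.0 CPM and 3W-PSCs 105 ± 15.8 CPM (SD, n = 4 each). Expression rose 4.47-fold from mono-PSCs to 2W-PSCs (log2 fold change 2.16, standard error 0.246, adjusted p = 0.000656 by the quasi-likelihood test of edgeR) and was 5.84-fold lower in 3W-PSCs than in 2W-PSCs (log2 fold change -2.55, standard error 0.179, adjusted p = 2.69e-05). Between 3W-PSCs and mono-PSCs the log2 fold change of -0.41, with its standard error of 0.199, missed the threshold of 0.05 (adjusted p = 0.138 in edgeR). Without replicate 3 of mono-PSCs, the lowest of that culture, it was -0.56 with an adjusted p of 0.0384 in edgeR.

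*Tagln* (ENSMUSG00000032085, chromosome 9, 45929619 to 45936058, minus strand) encodes transgelin, also called SM22, which binds actin filaments. Its levels were 10.7, 20.2, 9.05 and 6.17 CPM in mono-PSCs. For 2W-PSCs they were 63.9, 129, 47.3 and 60.8 CPM, and for 3W-PSCs 11.3, 9.95, 11.2 and 5.72 CPM. As for *Acta2*, 2W-PSCs lay above both other cultures without overlap, and these 2 overlapped. The rise from mono-PSCs, at 11.5 ± 6.06 CPM, to 2W-PSCs, at 75.2 ± 36.4 CPM (SD, n = 4 each), was 6.64-fold (log2 fold change 2.73, standard error 0.400, adjusted p = 0.00504 in edgeR). In 3W-PSCs, at 9.54 ± 2.62 CPM (SD, n = 4), it was 7.84-fold lower than in 2W-PSCs (log2 fold change -2.97, standard error 0.346, adjusted p = 0.000473 in edgeR). Without replicate 2 of 2W-PSCs, the rise was 2.34 and the drop -2.58 on the log2 scale (adjusted p = 0.000445 and 2.02e-06 in edgeR). The 3W-PSCs and mono-PSCs differed by -0.26 on the log2 scale (adjusted p = 0.598 in edgeR), and by 0.14 without replicate 2 of mono-PSCs. The gene shares 108 exonic bases with *Pcsk7* on the opposite strand, which had 552 counts over all 12 libraries. It shares 1241 with *Gm48529*, also on the opposite strand, which had no entry among the genes counted. Whether reads were counted by strand is not given in the sources used here, so reads of *Tagln* and of these genes cannot be told apart.

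*Myl9* (ENSMUSG00000067818, chromosome 2, 156775420 to 156781658, plus strand) encodes the smooth muscle form of the myosin regulatory light chain. It had 49.2, 69.7, 45.6 and 43.4 CPM in mono-PSCs and 84.3, 217, 63.0 and 90.7 CPM in 2W-PSCs. The 3W-PSCs had 20.2, 15.7, 16.3 and 18.7 CPM, below every library of the other cultures. Means were 52.0 ± 12.1, 114 ± 69.999 and 17.7 ± 2.09 CPM in the same order (SD, n = 4 each). Relative to 2W-PSCs, 3W-PSCs were 6.40-fold lower (log2 fold change -2.68, standard error 0.356, adjusted p = 0.00104 in edgeR), and relative to mono-PSCs 2.94-fold lower (log2 fold change -1.56, standard error 0.194, adjusted p = 1.34e-05). Unlike those of *Acta2* and *Tagln*, the 3W-PSC libraries of *Myl9* thus lay below those of mono-PSCs without overlap. Between 2W-PSCs and mono-PSCs the libraries overlapped, and the difference of 1.15 on the log2 scale (standard error 0.349) did not pass (adjusted p = 0.232 in edgeR). It was 0.62 (adjusted p = 0.217 in edgeR) without replicate 2 of 2W-PSCs, the library with 217 CPM.

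*Tpm2* (ENSMUSG00000028464, chromosome 4, 43514711 to 43523765, minus strand) encodes β-tropomyosin, which lies along the groove of the actin filament. It had 213, 371, 339.8 and 260.4 CPM in mono-PSCs, 346, 591, 304 and 389 CPM in 2W-PSCs, and 167, 153, 151 and 144 CPM in 3W-PSCs. The 3W-PSC libraries again lay below all others and close to each other. Means were 296 ± 72.2, 407 ± 127 and 154 ± 9.46 CPM (SD, n = 4 each), and expression in 3W-PSCs was 2.64-fold lower than in 2W-PSCs (log2 fold change -1.40, standard error 0.213, adjusted p = 0.00236 in edgeR) and 1.93-fold lower than in mono-PSCs (-0.95, standard error 0.173, adjusted p = 0.00059). Between 2W-PSCs and mono-PSCs, whose libraries overlapped, the log2 fold change was 0.48 (standard error 0.257, adjusted p = 0.823 in edgeR), and 0.23 without replicate 2 of 2W-PSCs.

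*Cnn2* (ENSMUSG00000004665, chromosome 10, 79988584 to 79996062, plus strand) encodes calponin 2, the calponin found in many non-muscle cells. It had 320.2, 271, 274 and 255 CPM in mono-PSCs, 377, 321.4, 376 and 328 CPM in 2W-PSCs, and in 3W-PSCs 195, 194, 201 and 225 CPM. The 3 cultures did not overlap, although the highest mono-PSC library, at 320.2 CPM, all but touched the lowest 2W-PSC library. With means of 280.2 ± 27.9, 351 ± 29.97 and 204 ± 14.7 CPM (SD, n = 4 each), 3W-PSCs were 1.72-fold lower than 2W-PSCs (log2 fold change -0.78, standard error 0.146, adjusted p = 0.00723 in edgeR). Against mono-PSCs they were 1.38-fold lower (-0.47, standard error 0.142, adjusted p = 0.0217), a call that was lost without replicate 1 or without replicate 2 of 3W-PSCs (adjusted p = 0.0711 and 0.0792 in edgeR). Between 2W-PSCs and mono-PSCs the log2 fold change was 0.34 (standard error 0.178, adjusted p = 0.802 in edgeR).

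*Tpm1* (ENSMUSG00000032366, chromosome 9, 67022590 to 67049406, minus strand), which encodes α-tropomyosin, and *Cald1* (ENSMUSG00000029761, chromosome 6, 34598500 to 34775473, plus strand) passed the test in none of the 3 comparisons. *Tpm1* had 589, 799, 675 and 606 CPM in mono-PSCs, 1142, 1347, 954 and 1023 CPM in 2W-PSCs, and 943, 910.3, 654 and 824 CPM in 3W-PSCs. All 2W-PSC libraries lay above all libraries of either other culture, the closest being 954 CPM against 943 CPM in 3W-PSCs. The log2 fold change was 0.76 from mono-PSCs to 2W-PSCs (standard error 0.203, adjusted p = 0.14 in edgeR) and -0.42 from 2W-PSCs to 3W-PSCs (standard error 0.183, adjusted p = 0.171). The first of these was past the threshold with all 12 libraries in the same fit (adjusted p = 0.0486 in edgeR) and in DESeq2 (adjusted p = 0.0172). Against mono-PSCs, 3W-PSCs differed by 0.31 on the log2 scale (standard error 0.164, adjusted p = 0.171 in edgeR).

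*Cald1* had 1309.9, 1694, 1319 and 1407 CPM in mono-PSCs, 2018, 3428, 1642 and 1940.3 CPM in 2W-PSCs, and 2078, 2006, 1376 and 1883 CPM in 3W-PSCs. The cultures overlapped in all 3 comparisons, and replicate 2 of 2W-PSCs, with 3428 CPM, was the highest library. The log2 fold change was 0.67 from mono-PSCs to 2W-PSCs (standard error 0.254, adjusted p = 0.451 in edgeR), and -0.30 from 2W-PSCs to 3W-PSCs (standard error 0.247, adjusted p = 0.487). Without that library these values were 0.38 and -0.021. From mono-PSCs to 3W-PSCs it was 0.35 (standard error 0.170, adjusted p = 0.139 in edgeR), opposite in sign to *Myl9*, *Tpm2* and *Cnn2*, and 0.47 without replicate 3 of 3W-PSCs (adjusted p = 0.0493).

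*Cnn1*, *Actg2* and *Myh11* had too few counts for the test. *Cnn1* (ENSMUSG00000001349, chromosome 9, 22099216 to 22109630, plus strand) encodes calponin 1, the form found mainly in differentiated smooth muscle. It had 1, 0, 6 and 8 counts in mono-PSCs, 8, 19, 6 and 12 counts in 2W-PSCs, and 1, 0, 0 and 0 counts in 3W-PSCs, where a count of 0 allows up to 0.347 to 0.390 CPM. The 2W-PSC libraries lay above all 3W-PSC libraries (two-sided exact permutation test of CPM, p = 0.0286, the smallest that 4 libraries against 4 can give). Summed over libraries, the ratio of 2W-PSCs to 3W-PSCs, each relative to its library totals, was 60.3 with a 95% counting interval of 10.3 to 2433, from 45 counts against 1. With no filter on low counts, the adjusted p for this comparison was 0.008 in edgeR and 0.000267 in DESeq2. Against mono-PSCs, 2W-PSCs and 3W-PSCs overlapped, and the exact permutation test gave p = 0.0857 and p = 0.143.

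*Actg2* (ENSMUSG00000059430, chromosome 6, 83512905 to 83536265, minus strand), the γ-actin of enteric smooth muscle, had 8 counts in replicate 4 of 2W-PSCs, 2 in replicate 1 of 3W-PSCs and none in the other 10 libraries. *Myh11* (ENSMUSG00000018830, chromosome 16, 14194535 to 14291372, minus strand), the smooth muscle myosin heavy chain that most strictly marks mature smooth muscle, had 1 count in replicate 1 of mono-PSCs, 3 in replicate 4 of 3W-PSCs and none elsewhere. A count of 0 in these libraries allows up to 0.347 to 0.736 CPM. Neither gene was detectably different between cultures at this depth.

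Set against all genes, members were called in different shares in the 3 comparisons. The 7 members tested had at least 44 counts in every library, so that none passed the filter through its highest culture alone. Between 3W-PSCs and 2W-PSCs, 5 of the 7 were lower (71.4%) and none was higher in edgeR, in DESeq2 or at an unadjusted p under 0.05, where 4.95% of 11513 genes were called lower, 5.73% higher and 10.7% in either direction. The 5 were *Tagln*, *Myl9*, *Acta2*, *Tpm2* and *Cnn2*, and 4 of them were called with a log2 fold change below -1, as were 2.02% of all genes tested. All 7 had a negative log2 fold change, with a median of -1.40 against 0.0025 over all genes. The libraries of 3W-PSCs lay wholly below those of 2W-PSCs for 6 of the 7, against 9.87% of all genes. Between 2W-PSCs and mono-PSCs, 2 of 7 were higher (28.6%), *Acta2* and *Tagln*, where 0.839% of 11199 genes were called higher and 0.991% in either direction. All 7 were positive, with a median of 0.76 against 0.02 over all genes, and 4 of the 7 did not overlap, against 3.29% of all genes. Between 3W-PSCs and mono-PSCs, 3 of 7 were lower (42.9%), *Myl9*, *Tpm2* and *Cnn2*, and none was higher in edgeR, in DESeq2 or at an unadjusted p under 0.05, where 13.0% of 11551 genes were called lower, 13.4% higher and 26.4% in either direction. The libraries of these 3 lay wholly below those of mono-PSCs, as did 12.2% of all genes. Here 5 were negative and 2, *Tpm1* and *Cald1*, positive, with a median of -0.41 against 0.012 over all genes. The comparisons share libraries, so their values are given side by side only.

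**Figure D3:**
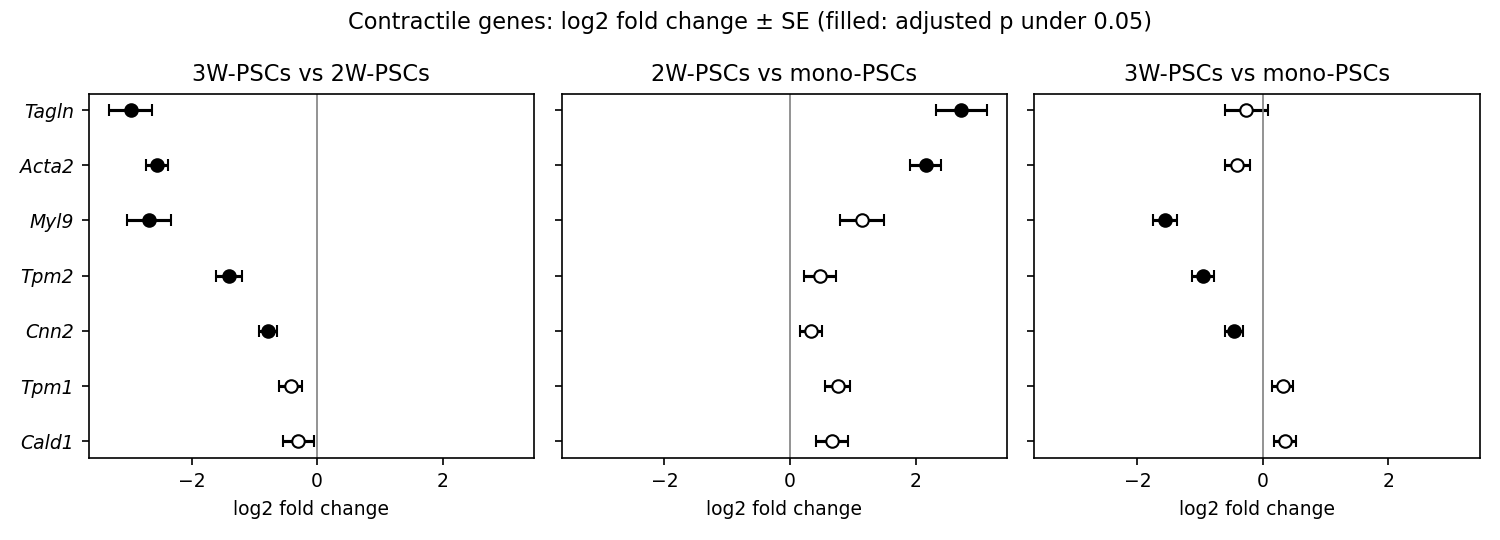
Log2 fold change of the 7 members tested in each comparison of cultures, with whiskers of 1 standard error from edgeR and filled points for an adjusted p under 0.05. Filled points number 5 for 3W-PSCs against 2W-PSCs, all negative, 2 for 2W-PSCs against mono-PSCs, both positive, and 3 for 3W-PSCs against mono-PSCs, all negative.

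Members were also set against the other genes of 6 protein families, since the share of the listed genes in a family's counts does not depend on how libraries are scaled. Shares are given as means over 4 libraries, and differences were tested by two-sided exact permutation, whose smallest p at this size is 0.0286. *Acta2* and *Actg2* made up 1.33% ± 0.307 of the counts of the 6 actin genes in mono-PSCs, 4.77% ± 1.13 in 2W-PSCs and 1.10% ± 0.120 in 3W-PSCs (SD, n = 4 each). *Actb*, the actin of all cells, gave most of the rest, at 10195, 12957 and 9592 CPM on average. *Actg1*, the other actin of non-muscle cells, was listed at only 7.64, 9.75 and 5.97 CPM, and 39.3% of the 75-base windows in the last 500 bases of its transcripts also occur in other genes, so its count is uncertain. None of the windows of the 10 members did. Among the other genes of these families, the share of such windows was highest for *Myl12b* (42.7%), *Myl12a* (20.6%), *Tpm3* (17.7%) and *Cnn3* (6.90%). Counts of these genes are uncertain too, as are the shares in the families that hold them.

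*Tagln* held 2.79% ± 1.24 of the transgelin counts in mono-PSCs, 12.4% ± 1.01 in 2W-PSCs and 1.18% ± 0.321 in 3W-PSCs (SD, n = 4 each), with no overlap between any 2 cultures. In single libraries the share ran from 1.61% to 4.50% in mono-PSCs, from 11.4% to 13.4% in 2W-PSCs and from 0.732% to 1.45% in 3W-PSCs. The rest was almost all *Tagln2*, the transgelin of non-muscle and immune cells. *Tagln2* was higher in 3W-PSCs, at 796 ± 33.8 CPM, than in mono-PSCs, at 392 ± 25.6 CPM (SD, n = 4 each; log2 fold change 1.01, adjusted p = 4.36e-05 in edgeR), while *Tagln* was not called in that comparison. *Cnn1* held 0.142% ± 0.144, 0.419% ± 0.316 and 0.00967% ± 0.0193 of the calponin counts (SD, n = 4 each). Replicate 2 of 2W-PSCs had 0.864%, and without it the difference between 3W-PSCs and 2W-PSCs was -0.261 in place of -0.409 percentage points. *Tpm1* and *Tpm2* together held 47.4% ± 2.61, 52.9% ± 7.17 and 44.2% ± 2.57 of the tropomyosin counts (SD, n = 4 each), and these overlapped in every comparison. Without replicate 2 of 2W-PSCs, the difference between 3W-PSCs and 2W-PSCs was -5.57 in place of -8.72 percentage points. Both genes also make tropomyosins of non-muscle cells, which counts per gene at the 3′ end do not separate.

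*Myl9* held 6.75% ± 3.16 of the regulatory light chain counts in mono-PSCs, 17.6% ± 20.3 in 2W-PSCs and 2.04% ± 0.446 in 3W-PSCs (SD, n = 4 each). Replicate 2 of 2W-PSCs had 47.8%, and the other 2W-PSCs had 7.76%, 4.37% and 10.3%. In that library *Myl12a*, the main non-muscle light chain, was at 203 CPM, against 749 to 1328 CPM in the other 2W-PSCs. The difference between 3W-PSCs and 2W-PSCs was -15.5 percentage points, and -5.45 without that library. *Myh11* held at most 0.0491% of the counts of the 4 myosin II heavy chains in any library (95% exact binomial interval 0.0101% to 0.143%, for counting error only). Of 18 tests of shares, 8 reached p = 0.0286 in the exact permutation test, and none was under 0.05 after Benjamini-Hochberg adjustment (0.0643). As 0.0286 is the smallest p possible, tests at that limit can pass after adjustment only when enough of the 18 share it. With 8 at the limit, the adjusted value was 0.0643. The adjusted values therefore say little about single families. The 8 were those of the actin share between 2W-PSCs and either other culture, of the transgelin share in all 3 comparisons, of the calponin share between 3W-PSCs and 2W-PSCs, and of the light chain share between 3W-PSCs and either other culture.

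**Figure D4:**
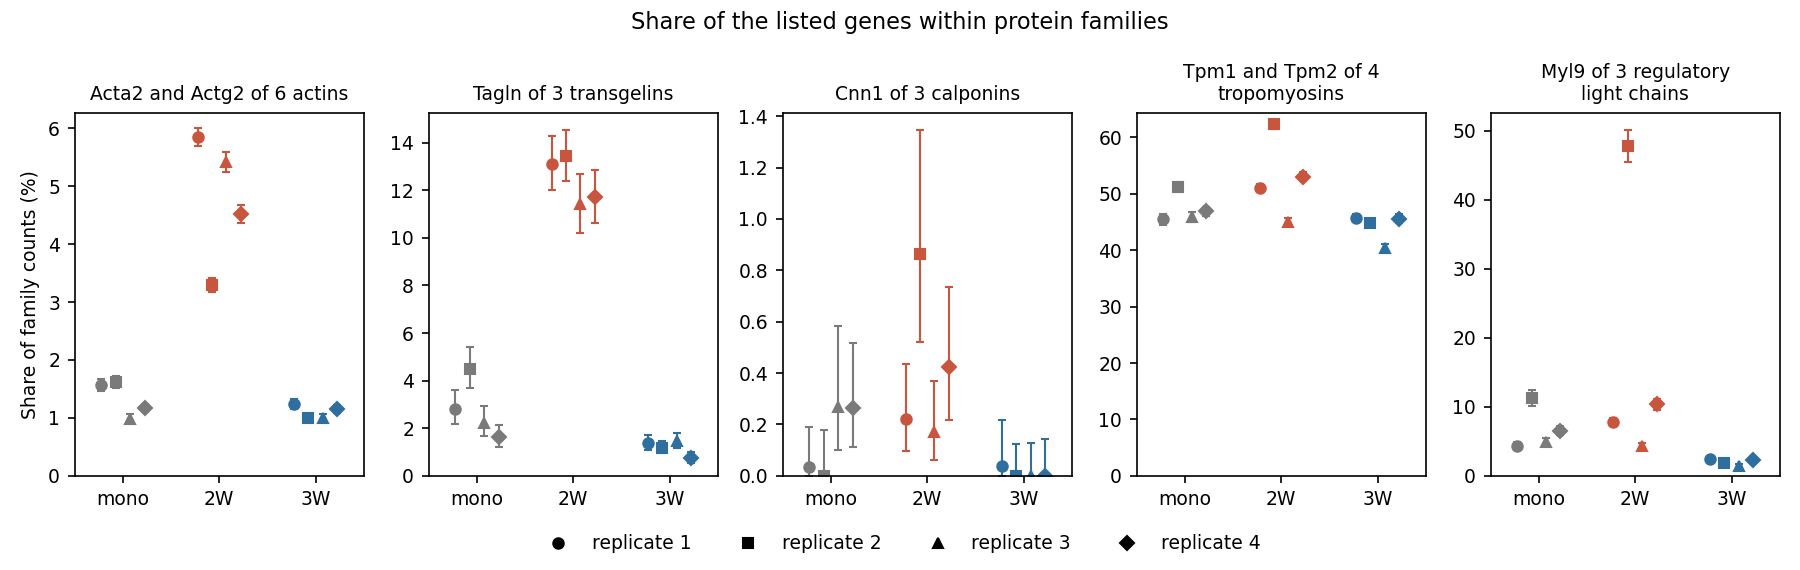
Percent of a protein family's counts that came from the listed genes, in each library, for 5 families. Whiskers are 95% exact binomial intervals and cover counting error only. *Tagln* lies between 11.4% and 13.4% in 2W-PSCs and at most at 4.50% elsewhere, and replicate 2 of 2W-PSCs lies at 47.8% for *Myl9*.

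Relatives of the members outside the group, mostly forms of non-muscle cells, were listed too. Between 3W-PSCs and 2W-PSCs, 0 of 11 tested were called in edgeR, against 10.7% of all genes. Of the 11, 2 had an unadjusted p under 0.05, *Tagln2* and *Myl6*, and DESeq2 called 1, *Myl6*. The median log2 fold change was -0.12, with a range from -0.99 to 0.62. Without replicate 2 of 2W-PSCs, *Tagln2* was called higher (0.94, adjusted p = 0.000294 in edgeR) and *Myl6* lower (-1.28, adjusted p = 4.11e-05). Between 2W-PSCs and mono-PSCs, also 0 of 11 were called in edgeR and 0 in DESeq2, with a median of 0.26 and 2 at an unadjusted p under 0.05. Over all genes, 0.991% were called there in edgeR. When 3W-PSCs were set against mono-PSCs, 2 of 11 were higher and 1 lower, where 13.4% and 13.0% of all genes were. The higher were *Tagln2* and *Myh9*, a non-muscle myosin heavy chain (log2 fold change of *Myh9* 0.52, adjusted p = 0.0493 in edgeR). *Myl6*, an essential light chain, was lower (-1.10, adjusted p = 0.000112 in edgeR). The call of *Myh9* was made in 7 of 15 alternatives, with an adjusted p of up to 0.116 in the others. *Acta1*, *Actc1*, *Tagln3* and *Myh14*, mostly forms of striated muscle and neurons, had at most 6 counts in any library and were not tested.

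Of 20 further genes of contractile cells, 13 were tested between 3W-PSCs and 2W-PSCs, 2 were higher, 3 were lower, and the median log2 fold change was -0.11. Over all genes, 5.73% were called higher and 4.95% lower. *Csrp1*, an SRF target that binds actin-bundling proteins, fell from 227 ± 85.8 to 99.7 ± 22.6 CPM (SD, n = 4 each; log2 fold change -1.19, adjusted p = 0.0158 in edgeR). *Fhl2*, a LIM-domain cofactor, fell from 120 ± 35.03 to 58.3 ± 5.52 CPM (-1.04, adjusted p = 0.0118 in edgeR), and *Lmod1*, a leiomodin that nucleates actin filaments in smooth muscle, from 6.89 to 0.728 CPM (-3.15, adjusted p = 0.039). For *Lmod1*, replicate 2 of 2W-PSCs had 18.2 CPM and the other 2W-PSCs had 4.79, 2.71 and 1.93 CPM. Without that library its log2 fold change was -2.06 (adjusted p = 0.0464 in edgeR), and the call was lost without replicate 1 of 2W-PSCs (0.0564) or without replicate 1, 3 or 4 of 3W-PSCs (0.107, 0.109 and 0.101). In the other direction, *Actn1*, an α-actinin that crosslinks actin, rose from 318 ± 81.8 to 588 ± 55.6 CPM (SD, n = 4 each; 0.89, adjusted p = 0.0195 in edgeR), and *Synm*, which encodes the intermediate filament protein synemin, from 0.628 to 4.21 CPM (2.65, adjusted p = 0.0151). Of these calls, that of *Csrp1* was lost without replicate 1 or 2 of 3W-PSCs (adjusted p = 0.0632 and 0.0692 in edgeR), that of *Fhl2* without replicate 2 of 3W-PSCs (0.0561), and that of *Synm* without replicate 2 of 3W-PSCs (0.0688) and with a replicate block (0.0535). *Actn1* was not called without replicate 1, 2 or 3 of 3W-PSCs (adjusted p = 0.0559, 0.0671 and 0.0572 in edgeR) or without replicate 4 of 2W-PSCs (0.07). Genes of this list thus went both ways, where the members called went down. Between 2W-PSCs and mono-PSCs, 0 of 12 were called in edgeR, where 0.991% of all genes were. At an unadjusted p under 0.05 there were 3, all positive, of which DESeq2 called 1, *Pdlim7*. That gene was called higher in 5 of 15 alternatives, among them the replicate block and leaving out replicate 2 of 2W-PSCs (log2 fold change 0.83, adjusted p = 0.0139 in edgeR). *Lmod1*, also among the 3, had a log2 fold change of 1.53, and of 0.42 without replicate 2 of 2W-PSCs. In 3W-PSCs against mono-PSCs, 4 of 14 were called, a share close to the 26.4% of all genes called there. *Actn1* (1.28, adjusted p = 0.000122 in edgeR) and *Pdlim7* (0.77, adjusted p = 0.00121) were higher, and *Csrp1* (-0.89, adjusted p = 0.00344) and *Fhl2* (-1.08, adjusted p = 0.000102) lower. *Lmod1* was also called lower there with a replicate block (-1.93, adjusted p = 0.0456 in edgeR) and without replicate 2 of 3W-PSCs (-2.55, adjusted p = 0.0238). *Synpo2*, *Pdlim3*, *Itga8*, *Kcnmb1* and *Ppp1r14a* had at most 13 counts in any library and were never tested.

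Genes that regulate the contractile programme, SRF and its cofactors, ternary complex factors, Krüppel-like and TEAD factors and others, were tested for 19 of 20 in the table. None was called between 3W-PSCs and 2W-PSCs in edgeR (3 had an unadjusted p under 0.05, and DESeq2 called 1, *Klf4*), and none between 2W-PSCs and mono-PSCs (2 had, and DESeq2 called 0). Over all genes, edgeR called 10.7% and 0.991% in these comparisons. Without replicate 2 of 2W-PSCs, edgeR called *Elk3* (log2 fold change 0.63, adjusted p = 0.0124) and *Elk4* (0.87, adjusted p = 0.0362), both ternary complex factors, as raised from 2W-PSCs to 3W-PSCs, and *Klf4* lower in 2W-PSCs than in mono-PSCs (-1.23, adjusted p = 0.00186). The product of *Srf* binds CArG boxes. *Srf* averaged 66.4 ± 8.29 CPM for mono-PSCs, 49.6 ± 26.6 CPM for 2W-PSCs and 51.5 ± 8.58 CPM for 3W-PSCs (SD, n = 4 each). It had 10.3 CPM in replicate 2 of 2W-PSCs. *Myocd*, the cofactor specific to smooth and cardiac muscle, had at most 1 count in any library. Between 3W-PSCs and mono-PSCs, 3 of 19 were higher and 1 lower, where 13.4% and 13.0% of all genes were. *Klf4*, a factor known to repress contractile genes in smooth muscle, fell there from 451 ± 29.02 to 144 ± 21.5 CPM (SD, n = 4 each; log2 fold change -1.66, adjusted p = 4.32e-07 in edgeR). *Mkl1*, which encodes a myocardin-related SRF cofactor, was higher (0.65, adjusted p = 0.0331 in edgeR), as were the ternary complex factor *Elk3* (0.85, adjusted p = 0.000702) and *Arhgef1* (0.92, adjusted p = 0.0144). *Mkl1* was called in 8 of 15 alternatives, with an adjusted p of up to 0.13 in the others, and its libraries overlapped. The call of *Arhgef1* was lost with all 12 libraries in the same fit (adjusted p = 0.293 in edgeR). *Elk4* was called higher in 3 alternatives, among them leaving out replicate 1 of mono-PSCs (log2 fold change 1.83, adjusted p = 5.06e-05 in edgeR).

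**Figure D5:**
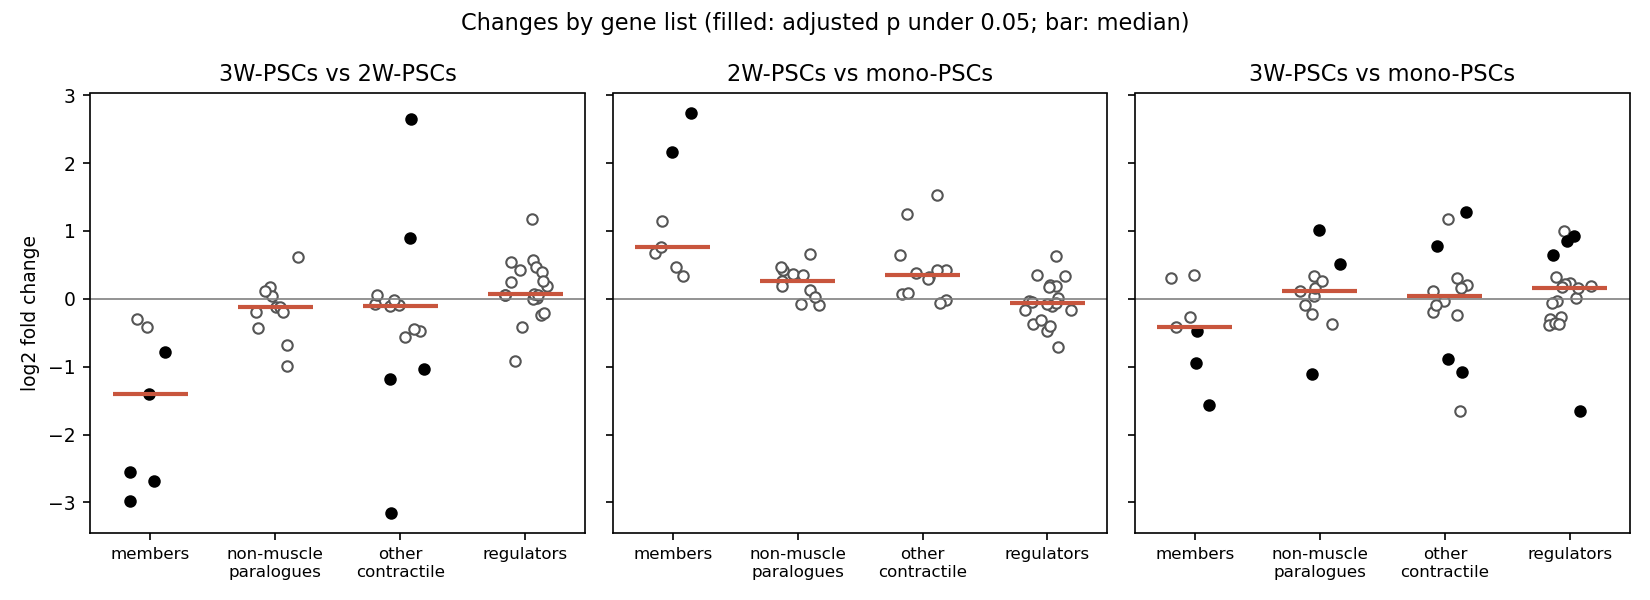
Log2 fold changes in edgeR of the contractile genes (members), their paralogues outside the group, other contractile genes and regulators, with a panel for each comparison. The axis labels the paralogues as non-muscle, which holds for most of them. Points are genes, filled for an adjusted p under 0.05, and bars are medians. For 3W-PSCs against 2W-PSCs the median is -1.40 for the members, -0.12 for the paralogues, -0.11 for the other contractile genes and 0.075 for the regulators.

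Likeness of pattern was measured as Pearson's r of log2 CPM over the 12 libraries, which share 3 cultures, so that any gene that differs between cultures in the same order will score high. Among 8699 other genes, those most like *Acta2* were *Nrep* (r = 0.967), the member *Tagln* (0.944), *Cygb* (0.941), *Ctla2a* (0.929), *Ccni* (0.913), *Stard10* (0.901), *Dkk3* (0.890), *Lox* (0.886) and *Serpinf1* (0.877). For *Tagln* they were *Ctla2a* (0.968), *Nrep* (0.965), *Cygb* (0.948), the member *Acta2*, *Mettl2* (0.930), *Stard10* (0.908), *Lox* (0.887), *Fstl1* (0.884) and *Serpinf1* (0.871). *Nrep* averaged 37.4 ± 7.50 CPM for mono-PSCs, 163 ± 28.1 CPM for 2W-PSCs and 28.9 ± 5.81 CPM for 3W-PSCs (SD, n = 4 each). *Cygb*, which encodes the haem protein cytoglobin known from stellate cells, had 51.2 ± 19.9, 271 ± 167 and 37.1 ± 8.27 CPM, and *Lox*, the lysyl oxidase that crosslinks collagen, had 445 ± 31.1, 668 ± 148 and 405 ± 37.8 CPM (SD, n = 4 each). Other members ranked lower by likeness to *Acta2*, from *Cnn2* at rank 22, *Myl9* at 31, *Tpm2* at 73 and *Tpm1* at 94 to *Cald1* at 673.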

How the data were processed

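RNA of sorted PSCs was measured in 12 libraries. The authors made QuantSeq 3′ FWD libraries, checked single-end reads with FastQC, trimmed them, used STAR for alignment to GRCm38 and featureCounts with Ensembl genes for counting. The deposited values are raw counts, whole numbers with totals of 4561817 to 8093368, although the methods call them normalised. Columns were matched to samples by the sample number in both names, and all 12 were used. Molecular identifiers are not named, so that intervals and limits cover counting error only.

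Cultures were compared in pairs with edgeR 4.0.16 (R 4.3.3), using TMM scaling, filterByExpr, glmQLFit and glmQLFTest on 8 libraries without a block, with Benjamini-Hochberg adjustment across every gene in the fit. A call means an adjusted p below 0.05. Levels are CPM with TMM scaling over 12 libraries, and likeness was taken on log2 CPM (prior count 2) among genes with a mean above 3. Positions and exons come from GENCODE M21. The test was tried first on simulated data. DESeq2 1.42.0 was an alternative, beside other scalings, filters, all libraries in the same fit, a replicate block and each library left out.

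The members and all gene lists were chosen with earlier results of these data known. The genes named are the 10 members, the genes of the paralogue, contractile and regulator lists that were called in any comparison, and the 8 genes most like *Acta2* and *Tagln*. *Srf*, *Myocd*, *Elk4*, *Actb*, *Actg1*, *Myl12a*, *Myl12b*, *Tpm3*, *Cnn3*, untested genes and single cell type markers were named after their values were seen. Some items of the lists and of the cell lines' genotypes are not reported here.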

Additional observations from a re-analysis of the deposited data

Results flagged for a closer look

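In groups of 4 libraries, a value was picked out when its gap to the nearest other library, divided by the range of the group, was above Dixon's critical value at the 95% level, a rule that chance meets in about 1 of 20 groups. The rule was applied to 24 groups of member levels, which left out some members in some cultures, and to groups of family shares besides. It picked out *Actg2* in replicate 4 of 2W-PSCs, at 1.28 CPM from 8 counts where the other 3 libraries had 0. With 3 libraries at 0, the gap always equals the range. That also held for *Cnn1* and *Actg2* in 3W-PSCs, and for *Myh11* in mono-PSCs and in 3W-PSCs. These groups, with at most 3 counts in a library, were not among those picked out. The share of *Tpm1* and *Tpm2* in the tropomyosin counts was 40.3% in replicate 3 of 3W-PSCs, and the nearest library had 44.9%. The share of *Myl9* in the regulatory light chain counts was 47.8% in replicate 2 of 2W-PSCs, and the nearest had 10.3%. In the same library *Myl9* was highest and *Myl12a* lowest of the 2W-PSCs, at 217 and 203 CPM.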

How the results depend on the processing

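All 5 calls between 3W-PSCs and 2W-PSCs and both calls between 2W-PSCs and mono-PSCs were kept in each of 15 alternatives, and with each library left out the counts stayed at 5 and at 2. Between 3W-PSCs and mono-PSCs, *Myl9* and *Tpm2* were kept in all 15 and *Cnn2* in 12, the exceptions being total counts without TMM (adjusted p = 0.0553 in edgeR) and leaving out replicate 1 or 2 of 3W-PSCs. With a library left out, 2 to 4 members were lower there and 0 to 1 higher, the latter *Cald1* without replicate 3 of 3W-PSCs. The log2 fold change of *Tagln* there ran from -0.49 to 0.14, the latter without replicate 2 of mono-PSCs, and the cause was not tested. Counts over all genes moved more, from 497 to 2107, from 57 to 277 and from 2063 to 4266, against 1230, 111 and 3054. The ends of the first range came without replicate 2 of 3W-PSCs and without replicate 2 of 2W-PSCs, those of the second under a minimum of 10 counts per library and under DESeq2, and those of the third with all 12 libraries in the same fit and without replicate 1 of mono-PSCs. Total counts without TMM gave 774 genes higher and 405 lower between 3W-PSCs and 2W-PSCs, against 660 and 570. Correlations of same-numbered deviations were -0.048 to 0.155, 0.0989 to 0.338 and 0.00224 to 0.107 in the 3 comparisons, with the own number best for 2, 3 and 2 of 4. Since none had every pair above 0.1, the numbers were taken as not pairing the libraries. Between 2W-PSCs and mono-PSCs only replicate 4, at 0.0989, missed that limit, so pairing was not excluded there. A replicate block gave 752, 135 and 3092 calls over all genes and changed no call of a member. At these depths *Cnn1*, *Actg2* and *Myh11* did not pass the filter on low counts.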

Other observations

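Over the 12 libraries, likeness between members was measured as Pearson's r of log2 CPM, given as a description since the libraries share 3 cultures. The highest values were those of *Myl9* with *Tpm2*, which belong to the motor and to the thin filament, 0.964, of *Acta2* with *Tagln*, 0.944, and of *Tpm1* with *Cald1*, 0.906. *Cnn2* had 0.840 with *Acta2* and 0.834 with *Myl9*, which had 0.821 with *Tagln* and 0.815 with *Acta2*, and *Tagln* had 0.810 with *Tpm1*. The lowest values were those of *Cnn2* with *Cald1*, 0.107, and with *Tpm1*, 0.333.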
